A study of Mus musculus with 20 samples.

Results

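The Gimap genes encode the GTPases of immunity-associated proteins, a family of small GTP-binding proteins of lymphocytes. All genes whose symbol is Gimap followed by a number were taken, which gave 8 genes (Gimap1, Gimap3, Gimap4, Gimap5, Gimap6, Gimap7, Gimap8 and Gimap9) among the 9973 genes of the treatment experiment. The same 8 were found among the 10706 genes of the knockout experiment. Group 2 innate lymphoid cells (ILC2) had been sorted from the mouse thymus and profiled in bulk by MARS-seq, which counts tags at the 3′ ends of polyadenylated transcripts. The treatment experiment compared 4 groups, each of 3 libraries from female mice of wild-type genotype. They were untreated mice, mice given sublethal irradiation of 425 rad, mice given an intrathymic injection of rIL-25 (recombinant IL-25, 0.3 µg), and mice given both. All treated groups were taken at day 3. The knockout experiment used male mice, all sublethally irradiated, with 4 libraries from Il25 wild-type (WT) and 4 from Il25 knockout (KO) mice. No group received an injection without rIL-25, so the cytokine and the injection cannot be told apart, and the KO mice had no unirradiated counterpart. Age, strain and the sorting gate are not given in the sources used here. Nothing in the labels says that replicates were separate animals, so the p-values measure only the spread between these libraries, which may be technical.

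GIMAP proteins share a conserved GTP-binding domain, and several are anchored to membranes inside the cell. They are known for keeping naive T cells and other lymphocytes alive: loss of Gimap5 leaves mice and rats short of T cells, and loss of Gimap1 leaves mice short of mature T and B cells. Gimap4 has been linked to the execution of T cell death, Gimap3 is a close relative of Gimap5 that has been placed at mitochondria and the endoplasmic reticulum, and Gimap6 binds a GABARAP protein of the autophagy machinery.

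The 8 genes lie side by side on mouse chromosome 6 (mm10), from 48647234 to 48770851, over 123.6 kb. In order along the chromosome they are Gimap8, Gimap9, Gimap4, Gimap6, Gimap7, Gimap1, Gimap5 and Gimap3. Gimap6 and Gimap3 are on the minus strand and the others on the plus strand. The annotated gene Gm28053 spans Gimap7, Gimap1 and Gimap5, and an antisense gene, Gimap1os, overlaps Gimap1. Whether counting used the strand is not given in the sources used here. In each of the 8 genes, 0% of the last 500 exonic bases, where 3′ tags fall, lay in an exon of another annotated gene on either strand. Gimap3 and Gimap5 share a run of 140 identical bases elsewhere in their transcripts, but in the last 500 bases their longest shared run was 8 bases and their identity 52.2%.

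The promoters of the pair of genes whose levels moved with treatment, Gimap3 and Gimap4, are shown with that of Gimap1, whose level was the highest of the family on the untreated CPM scale. Each is the RefSeq sequence (GRCm38.p6) on the gene's own strand, from 250 bases before to 50 bases after the start, at chr6:48770802-48771101 (minus strand) for Gimap3, chr6:48684328-48684627 (plus strand) for Gimap4 and chr6:48738797-48739096 (plus strand) for Gimap1. Capitals mark matches on either strand to the motifs searched.
Gimap3: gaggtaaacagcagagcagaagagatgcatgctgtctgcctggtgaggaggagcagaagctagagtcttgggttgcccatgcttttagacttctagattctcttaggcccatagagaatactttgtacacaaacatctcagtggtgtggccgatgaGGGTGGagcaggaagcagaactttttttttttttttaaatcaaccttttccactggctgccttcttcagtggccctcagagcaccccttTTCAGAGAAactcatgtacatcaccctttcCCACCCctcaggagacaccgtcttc
Gimap4: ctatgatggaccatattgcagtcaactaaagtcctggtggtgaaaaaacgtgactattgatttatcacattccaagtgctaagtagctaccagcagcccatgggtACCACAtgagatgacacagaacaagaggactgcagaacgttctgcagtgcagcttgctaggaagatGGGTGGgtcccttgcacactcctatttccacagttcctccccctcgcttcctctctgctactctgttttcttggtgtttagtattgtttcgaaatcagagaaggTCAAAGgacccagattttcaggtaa
Gimap1: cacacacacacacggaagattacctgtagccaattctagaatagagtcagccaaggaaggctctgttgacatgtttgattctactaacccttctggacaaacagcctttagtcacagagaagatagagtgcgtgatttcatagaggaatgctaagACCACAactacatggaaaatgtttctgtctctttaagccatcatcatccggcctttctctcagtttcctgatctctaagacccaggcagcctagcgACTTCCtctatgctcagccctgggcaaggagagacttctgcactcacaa
The Gimap3 window held TTCNNNGAA, the motif of STAT factors, beginning 5 bases before the start, a motif found in 8.3% of 32851 mouse promoters of the same length. It also held CCACCC, the KLF/SP motif (31.5% of promoters), at 2 places. The Gimap4 window held TGTGGT, the RUNX motif (16.8% of promoters), CCACCC once, and CTTTGA, the TCF/LEF motif (16% of promoters). In Gimap1 the matches were TGTGGT and GGAAGT, the latter the ETS motif (23.8% of promoters). AGATAA, the GATA motif (11.2% of promoters), matched in none of the 8 genes' windows, and TATAAA (13.6% of promoters) matched in Gimap6 alone among them. Other members held the same motifs: TTCNNNGAA in Gimap6, Gimap7 and Gimap8, and CCACCC in Gimap5, Gimap8 and Gimap9. Gimap7 also held TGTGGT and CTTTGA, and Gimap5, Gimap6 and Gimap9 held GGAAGT. None of these motifs is thus particular to Gimap3 and Gimap4. These matches are descriptions of the letters and were not tested as binding sites.

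Total counts ranged from 495079 to 1460702 in the treatment experiment and from 2093288 to 4420831 in the knockout experiment. Levels are CPM, the counts scaled to a common library size after trimmed-mean (TMM) normalization, and 3 counts in 1 treatment library came to 2.05 to 6.06 CPM before that scaling. Il25 itself had 37 counts over the 4 WT libraries and 0 in the 4 KO libraries. The ILC2 label was checked against marker genes. The ILC2 regulator Gata3 stood at 187 to 249 CPM and the IL-25 receptor chain Il17rb at 199 to 218 CPM as group means of the treatment experiment. The IL-33 receptor gene Il1rl1 was nearly absent in untreated libraries (0, 0 and 3 counts). T cell and thymocyte markers were also plentiful: 17 of 20 listed genes were in the treatment table, with a summed level of 4118 to 5998 CPM per library. Among them Cd4 and Cd8a were low, with 11 and 13 counts over the untreated and 3 and 4 over the irradiated libraries. They had 22 and 21 counts over the rIL-25 libraries and 5 and 8 over those of both treatments. Cd3d, Cd3e and Cd3g had means of 676, 312 and 340 CPM after irradiation. One library stood apart. In rIL-25 replicate 3 the summed myeloid and dendritic markers (9 of 11 in the table) reached 1303 CPM, against 57.7 to 207 CPM in the other treatment libraries, and Cd4 and Cd8a had 17 counts each.

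Gimap1 was the member with the highest untreated level, and Gimap6, Gimap9 and Gimap5 followed. Untreated ILC2 libraries held 94.2 ± 2.90 CPM of Gimap1, 80.1 ± 23.2 CPM of Gimap6, 40.4 ± 8.84 CPM of Gimap9 and 35.0 ± 4.76 CPM of Gimap5 (mean ± SD, n = 3). Gimap7 stood at 7.84 ± 2.56 CPM and Gimap8 at 4.23 ± 4.24 CPM. Gimap3 and Gimap4 were close to absent, with 3 counts each over all untreated libraries (1.21 ± 2.10 and 1.31 ± 1.22 CPM). Tags are taken at transcript ends and were not divided by length, so this is an order of tag levels and not of transcripts per cell. A count filter left 6 of the 8 members for testing in the treatment experiment, without Gimap7 and Gimap8, and 7 in the knockout experiment, without Gimap8. In the treatment experiment Gimap3 and Gimap4 passed it only through the libraries in which they were high.

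**Figure D1:**
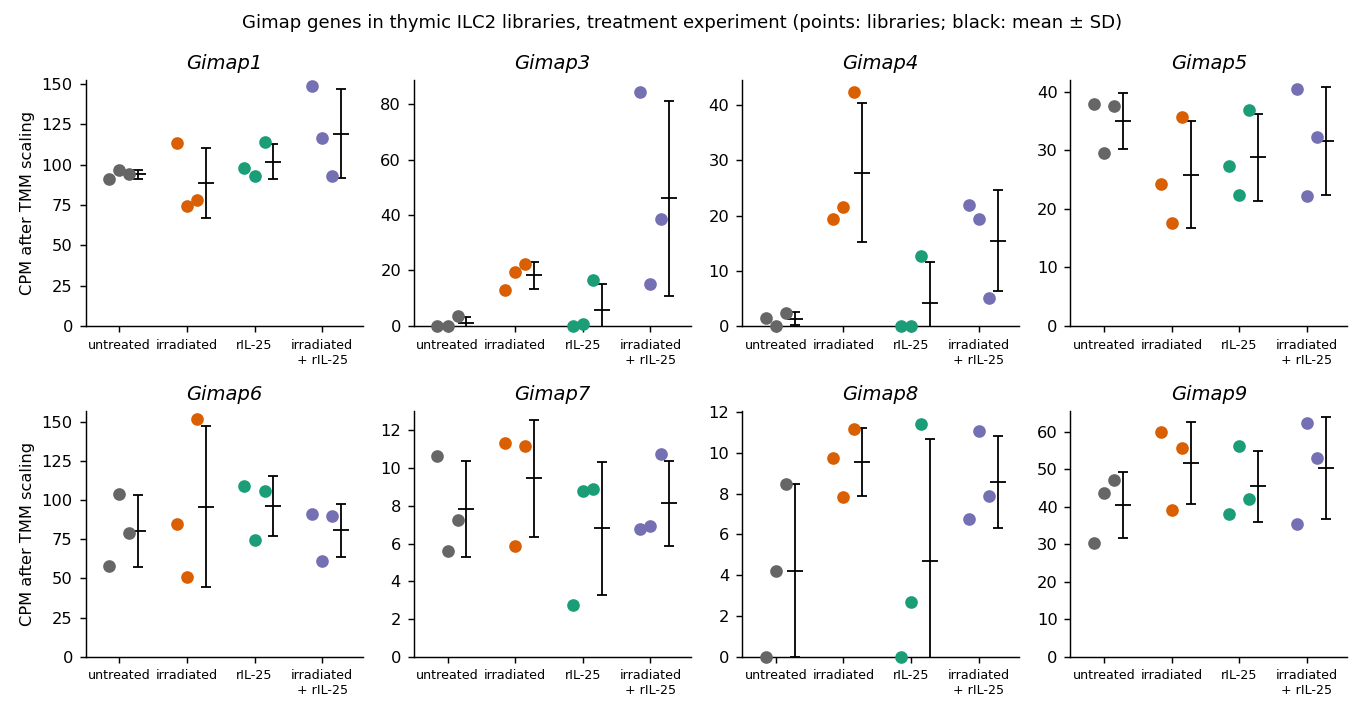
CPM of each Gimap gene in the 12 libraries of the treatment experiment, with 1 panel per gene and its own linear axis from 0. Points are libraries and black marks are the mean ± SD (n = 3), with bars that would pass below 0 ending at the axis. Gimap3 and Gimap4 lie near 0 in untreated libraries and above them in all irradiated libraries, while the points of the other genes mingle.

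The first comparison asked how sublethal irradiation changed the cells that were sorted 3 days later. Gimap4 rose, and Gimap3 was higher in every irradiated library without passing the test over all genes. The counts of Gimap4 were 1, 0 and 2 in untreated replicates 1 to 3 and 12, 11 and 19 in the irradiated ones, which is 27.8 ± 12.7 CPM after irradiation (n = 3). No irradiated library overlapped the untreated ones, as was true in this direction of 11.9% of all 7482 genes tested. The ratio of counts per total was 17.5 (exact 95% interval 5.61 to 88.5, counting error only), and edgeR's quasi-likelihood test gave a log2 fold change of 4.17 ± 1.02 (SE) with a Benjamini-Hochberg adjusted p of 0.0219. It was the only called member of the 6 tested, where 4.02% of all genes tested were called. The call was lost without irradiated replicate 3 (adjusted p = 0.113) or without untreated replicate 1, 2 or 3 (adjusted p = 0.0830, 0.0699 and 0.0784), and DESeq2 did not make it (adjusted p = 0.0868). In the authors' deposited table it did not pass either (adjusted p = 0.111). In bulk libraries a change in the number of cells that express a gene and a change in RNA per cell cannot be told apart.

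Gimap3 had 0, 0 and 3 counts in the untreated libraries and 8, 10 and 10 in the irradiated ones, or 18.3 ± 4.79 CPM after irradiation. Here too the groups did not overlap. The ratio was 11.7 (interval 3.61 to 60.1) and the adjusted p 0.0759. Without rIL-25 replicate 3, which enters the shared estimate of spread, that p was 0.0235.

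The more abundant members did not pass the test after irradiation. Gimap1 had 91.2, 96.9 and 94.4 CPM in the untreated libraries and 114, 74.4 and 78.0 CPM in the irradiated ones, and the groups overlapped (log2 fold change -0.07, 95% interval -0.53 to 0.38). Gimap6 spread widely, from 50.9 to 152 CPM among irradiated libraries, around 95.6 ± 51.3 CPM. Gimap5, needed for T cell survival, was at 25.9 ± 9.12 CPM (log2 interval -1.14 to 0.23), and Gimap9 at 51.6 ± 11.0 CPM (log2 interval -0.23 to 0.92). For Gimap8, 6, 4 and 5 counts after irradiation stood beside 0, 3 and 7 in untreated libraries, and Gimap7 stood at 9.46 ± 3.11 CPM. Over the 6 members tested the median log2 fold change was 0.29, beside 0.02 over all genes tested. That median includes Gimap3 and Gimap4, which passed the count filter only through libraries where they were high, so it is not evidence about the family. Gimap1, Gimap5, Gimap6 and Gimap9 had log2 fold changes of -0.07, -0.45, 0.23 and 0.35.

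rIL-25 without irradiation called none of the members. Gimap3 had 0, 1 and 13 counts and Gimap4 had 0, 0 and 10 counts in replicates 1 to 3. Nearly all of these counts came from replicate 3, the library with the high myeloid and dendritic markers, and the part of those cells in the counts was not tested. edgeR gave adjusted p = 0.999 for each of them, with log2 fold changes of 1.77 ± 1.31 for Gimap3 and 1.30 ± 1.32 for Gimap4. Without replicate 3 those became -1.32 and -3.26. No member reached an unadjusted p under 0.05, and over all genes 0% were called, with 336 at an unadjusted p under 0.05 and 0 by DESeq2 or limma voom. Gimap1 at 102 ± 11.1 CPM, Gimap6 at 96.3 ± 19.1, Gimap9 at 45.4 ± 9.46, Gimap5 at 28.8 ± 7.40, Gimap7 at 6.81 ± 3.53 and Gimap8 at 4.72 ± 5.98 CPM overlapped with the untreated libraries.

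With irradiation and rIL-25 together, Gimap3 rose most. Its counts were 50, 11 and 54 in replicates 1 to 3, or 84.5, 15.2 and 38.7 CPM (46.1 ± 35.2 CPM), against 3 counts in all untreated libraries. The lowest of these libraries was above the highest untreated one at 3.63 CPM. The ratio of counts per total was 30.3 (interval 10.1 to 149), with a log2 fold change of 4.90 ± 0.97 and an adjusted p of 0.00287. Gimap3 was the only one of the 6 tested members called, where 8.93% of all genes were called, and it stayed called in all 12 fits that left out 1 library (adjusted p up to 0.0202). In the authors' deposited table it also passed, with an adjusted p of 0.0261.

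Gimap4 had 13, 14 and 7 counts after both treatments, or 22.0, 19.4 and 5.02 CPM (15.5 ± 9.13 CPM). All 3 libraries were above the untreated ones, which was so in this direction for 13.5% of all genes tested. The ratio was 8.94 (interval 2.81 to 45.5) and the adjusted p 0.0634, which came under 0.05 without rIL-25 replicate 2 (0.0386), rIL-25 replicate 3 (0.0188) or replicate 3 of both treatments (0.0485). Gimap1 was at 119 ± 27.9 CPM, Gimap6 at 80.6 ± 17.0, Gimap9 at 50.3 ± 13.6, Gimap5 at 31.7 ± 9.21, Gimap8 at 8.58 ± 2.24 and Gimap7 at 8.15 ± 2.26 CPM. Each of these overlapped with the untreated group. The 6 tested members had a median log2 fold change of 0.32, beside -0.01 over all genes tested. That median again includes Gimap3 and Gimap4, with the same limit. Gimap1, Gimap5, Gimap6 and Gimap9 had log2 fold changes of 0.32, -0.15, 0.01 and 0.32. This comparison and the other comparisons with untreated mice share the same 3 control libraries.

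**Figure D2:**
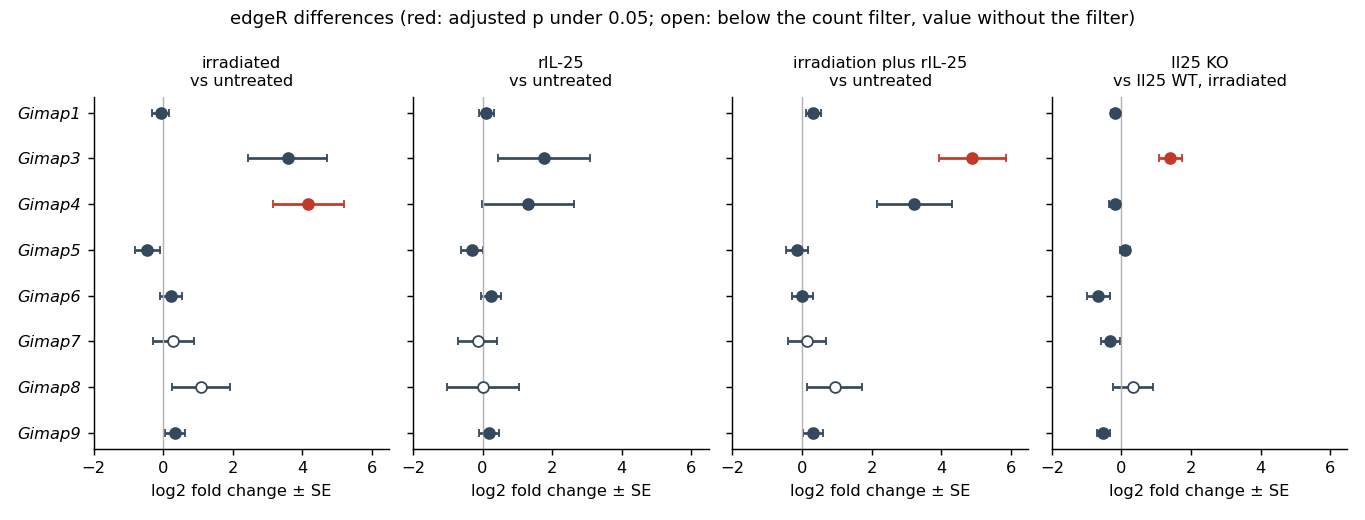
Log2 fold change ± SE of each Gimap gene in 4 comparisons (edgeR). Red points are called at an adjusted p under 0.05, and open points are genes below the count filter, shown with the values of the fit without it; Gimap3 and Gimap4 stand at 3.58 and 4.17 after irradiation and at 4.90 and 3.23 after both treatments.

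Set in order of mean level, Gimap3 ran from both treatments (46.1 CPM) through irradiation (18.3) and rIL-25 (5.74) to untreated (1.21), and no neighbouring pair in that order differed past the threshold (adjusted p = 0.323, 0.290 and 0.999). Gimap4 ran from irradiation (27.8 CPM) through both treatments (15.5) and rIL-25 (4.24) to untreated (1.31), again with no neighbouring pair past the threshold (adjusted p = 0.526, 0.132 and 0.999). Both treatments against rIL-25 alone called Gimap3, with 115 counts against 14 and a log2 fold change of 3.13 ± 0.75 (adjusted p = 0.00727), although its groups overlapped at 15.2 and 16.5 CPM. That comparison called 15.3% of all genes, and DESeq2 did not call Gimap3 in it (adjusted p = 0.124). In the authors' deposited table Gimap3 did not pass there (adjusted p = 0.816). Irradiation against rIL-25 called none of the 6 members (2.07% of all genes), and 2 of them had an unadjusted p under 0.05. For Gimap4 the difference was 2.87 ± 0.83 on the log2 scale (adjusted p = 0.0709), which limma voom called (0.0170). Without rIL-25 replicate 3 edgeR called both Gimap3 (0.0168) and Gimap4 (0.00165) there. Both treatments against irradiation alone called 0 of 6 members (2.51% of all genes), as did DESeq2 and limma voom, and none had an unadjusted p under 0.05. The interaction of irradiation and rIL-25 likewise called 0 of 6 (2.07% of all genes), with -2.24 ± 1.50 for Gimap4 and -0.45 ± 1.34 for Gimap3 on the log2 scale. No member had an unadjusted p under 0.05 for the interaction, and DESeq2 and limma voom called none.

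The make-up of the family's counts can also be given as shares. Gimap3 and Gimap4 were singled out from these same counts, so their shares restate the differences above and are no separate support. Gimap3 and Gimap4 together made up 0.662%, 0% and 2.17% of all Gimap counts in untreated replicates 1 to 3. For the replicate at 0%, 0 of 202 counts has an exact upper limit of 1.81%. After irradiation the shares were 9.66%, 17.4% and 15.9%, and after both treatments 24.4%, 11.0% and 13.2%. All 6 irradiated libraries of the treatment experiment thus lay above the untreated ones. With rIL-25 alone the shares were 0%, 0.262% and 8.39%, so replicates 1 and 2 were within the untreated range and replicate 3 was not. The summed level of the family was 264 ± 30.2 CPM in untreated, 327 ± 85.9 in irradiated, 294 ± 47.9 in rIL-25 and 360 ± 66.0 CPM in libraries of both treatments.

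**Figure D3:**
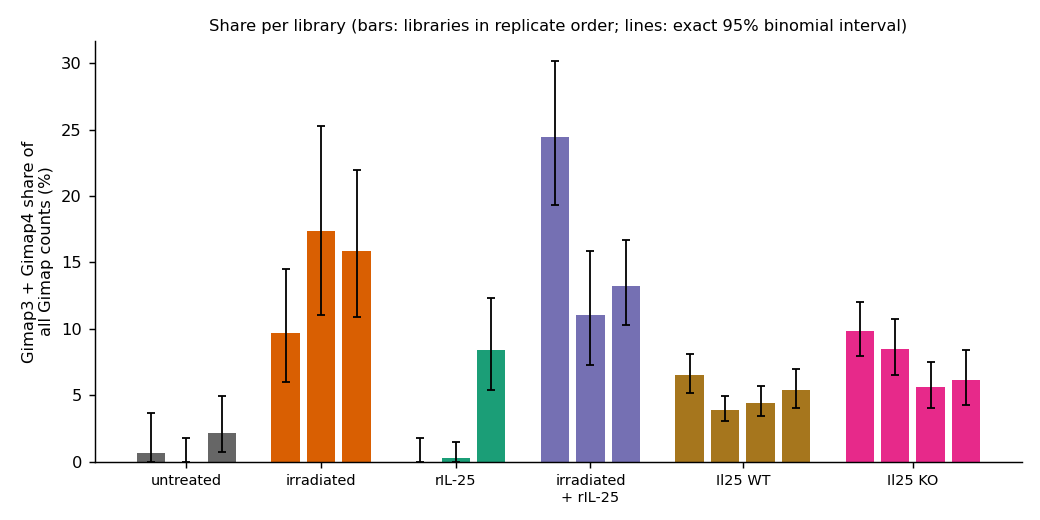
Share of Gimap3 plus Gimap4 among all Gimap counts, in percent, for each of the 20 libraries, with bars in replicate order within a group and lines for the exact 95% binomial interval (counting error only). The 6 irradiated libraries of the treatment experiment run from 9.66% to 24.4%, and rIL-25 replicate 3, at 8.39%, stands above the other rIL-25 libraries.

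The knockout experiment asked what irradiated ILC2 look like when the mice lack Il25. Gimap3 was higher without Il25. It had 14, 6, 14 and 11 counts in WT replicates 1 to 4 (3.58, 1.23, 3.80 and 3.44 CPM) and 42, 19, 15 and 14 counts in KO replicates 1 to 4 (10.1, 6.33, 6.81 and 7.34 CPM). Every KO library was above every WT library, which was so in this direction for 4.21% of all genes tested. The means were 3.01 ± 1.20 and 7.65 ± 1.71 CPM (n = 4), a log2 fold change of 1.41 ± 0.33 with an adjusted p of 0.0342 by edgeR's quasi-likelihood test. It was the only one of 7 tested members called, beside 1.77% of 8812 genes. The difference rests on 90 counts against 45, and the call was kept in 2 of the 8 fits that left out 1 library. It was lost without WT replicate 1, 2 or 3 (adjusted p = 0.0655, 0.0894 and 0.0549) or KO replicate 1, 3 or 4 (0.137, 0.0648 and 0.0608). In the authors' deposited table it passed as well (adjusted p = 0.0312).

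Gimap4 was nearly level in this experiment, at 13.7 ± 1.60 CPM in WT and 12.1 ± 1.39 CPM in KO libraries (log2 interval -0.53 to 0.17). Gimap6 and Gimap9 were lower on average in KO libraries but did not pass. Gimap6 had 72.9, 106, 114 and 63.4 CPM in WT and 17.6, 44.0, 90.3 and 82.4 CPM in KO replicates 1 to 4 (adjusted p = 0.470). Gimap9 had 61.4, 82.9, 72.3 and 63.1 CPM in WT and 33.3, 38.6, 65.3 and 62.4 CPM in KO replicates 1 to 4 (log2 fold change -0.52 ± 0.19, unadjusted p = 0.0158, adjusted p = 0.275). For both genes KO replicates 1 and 2 were below all WT libraries, and KO replicates 3 and 4 were within the WT range. Gimap1 was at 122 ± 8.68 and 107 ± 11.3 CPM, Gimap5 at 27.5 ± 4.17 and 29.8 ± 3.79, Gimap7 at 8.45 ± 1.46 and 6.87 ± 2.70 and Gimap8 at 1.59 ± 0.622 and 2.32 ± 1.84 CPM in WT and KO libraries. Their groups overlapped. The median log2 fold change of the 7 tested members was -0.20, beside a median near 0 over all genes tested. The family as a whole had 336 ± 37.9 CPM in WT and 274 ± 56.7 CPM in KO libraries, and Gimap3 with Gimap4 made up 3.90% to 6.55% of Gimap counts in WT and 5.60% to 9.87% in KO libraries.

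**Figure D4:**
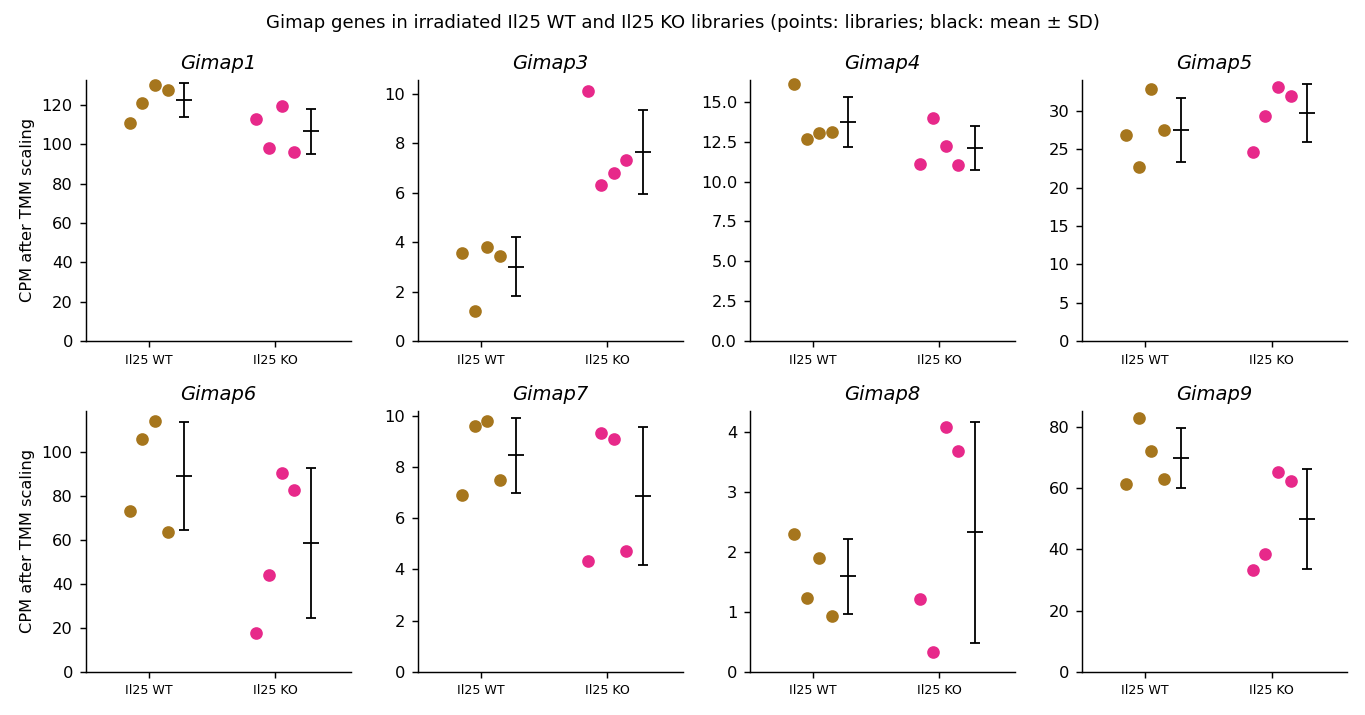
CPM of each Gimap gene in the 8 irradiated libraries of the knockout experiment, with 1 panel per gene and its own linear axis from 0. Points are libraries and black marks are the mean ± SD (n = 4); the 4 KO points of Gimap3 (6.33 to 10.1 CPM) lie above the 4 WT points (1.23 to 3.80 CPM), and the groups of the other genes overlap.

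Position along the cluster did not group the members that moved. Gimap3 lies at the far end, next to Gimap5, which shared none of its calls, and Gimap4 lies between Gimap9 and Gimap6. The lowest coordinate of Gimap3, its 3′ end on the minus strand, lies 117.2 kb from the first base of Gimap8, and that of Gimap4 lies 37.3 kb from it.

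**Figure D5:**
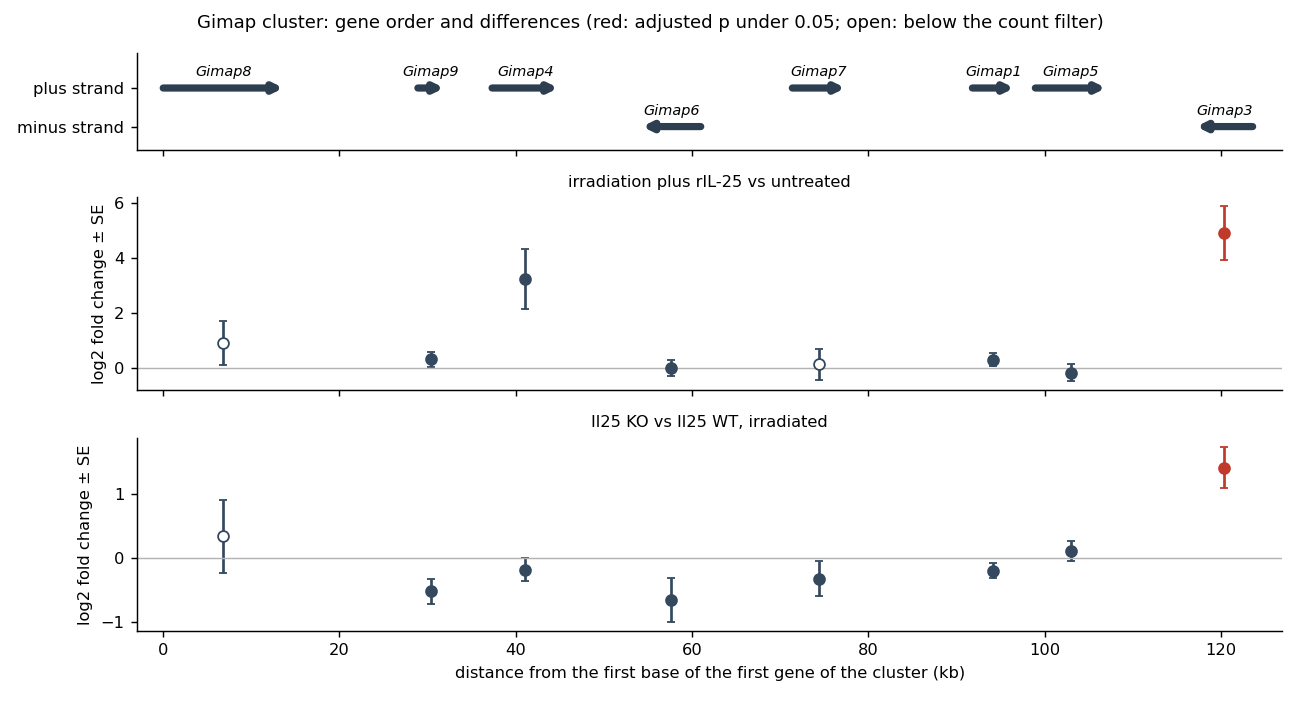
The Gimap cluster with gene positions and strands against distance in kb from the first base of Gimap8, over the log2 fold changes ± SE of both treatments against untreated and of Il25 KO against WT. Red marks calls at an adjusted p under 0.05 and open points genes below the count filter; the red point in both lower panels is Gimap3, at 4.90 and 1.41.

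Other genes of lymphocyte quiescence and the naive state, the setting in which GIMAP proteins are best known, were called in part. Of 18 tested, 2 rose and 0 fell after irradiation (4.02% of all genes were called), 5 rose and 2 fell after both treatments (8.93% of all genes), and 0 were called after rIL-25 (1 at an unadjusted p under 0.05, and 0 by DESeq2 or limma voom). Their median log2 fold change was -0.08 after irradiation and 0.21 after both treatments. With 1 library left out, the number called ran from 1 to 3 after irradiation (1 when irradiated replicate 3 or untreated replicate 1 or 3 was left out) and from 4 to 8 after both treatments (4 without untreated replicate 2 or replicate 1 of both treatments). Slfn2, which maintains T cell quiescence, went from 8.78 ± 1.71 CPM in untreated to 48.7 ± 11.5 in irradiated libraries (adjusted p = 0.0115) and 75.1 ± 13.9 CPM after both treatments (adjusted p = 0.000603). The lymph node homing receptor Ccr7 rose from 3.93 ± 2.28 to 32.0 ± 2.41 CPM after irradiation (adjusted p = 0.00934). Tcf7, a transcription factor of early T cells and ILC, rose from 131 ± 11.7 to 471 ± 332 CPM after both treatments (adjusted p = 0.00109). In the knockout experiment Slfn2 was the only one of 19 called (1.77% of all genes), at 18.9 ± 3.31 CPM in WT and 33.6 ± 8.30 CPM in KO libraries (adjusted p = 0.0363). That count fell to 0 without any single WT library or without KO replicate 3 or 4, and was 2 without KO replicate 1.

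Of 10 tested BCL2 family genes, which set the threshold of cell death, 2 rose after irradiation (4.02% of all genes were called) and 5 after both treatments (8.93%), and none fell. Their median log2 fold change was 0.21 after irradiation and 0.53 after both treatments. The count after irradiation was 1 without untreated replicate 1, and 0 without untreated replicate 2 or 3 or irradiated replicate 1 or 3. After both treatments it was 3 without untreated replicate 1 or irradiated replicate 1, 2 without untreated replicate 3, and 1 without untreated replicate 2 or replicate 3 of both treatments. The death effector Bax was at 141 ± 26.0 CPM in untreated, 271 ± 75.8 in irradiated (adjusted p = 0.0169) and 265 ± 12.4 CPM in libraries of both treatments (adjusted p = 0.0111). The survival gene Bcl2l1 was at 33.0 ± 9.80, 78.5 ± 16.9 and 80.5 ± 26.7 CPM in the same groups (adjusted p = 0.0252 and 0.00808). Bcl2, at 193 ± 62.3, 163 ± 27.2 and 152 ± 35.1 CPM, did not pass. In the knockout experiment 1 of 13 was called (1.77% of all genes), Bik, a death-promoting member (1.20 ± 0.464 CPM in WT and 4.57 ± 1.27 CPM in KO, adjusted p = 0.00791).

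Of 10 tested interferon-induced GTPases (guanylate-binding and immunity-related), 1 fell after both treatments, where 8.93% of all genes were called, and it was Gbp8 (log2 fold change -0.63 ± 0.19, adjusted p = 0.0391), a call count that ran from 0 to 2 with 1 library left out and was 0 by DESeq2. After irradiation 0 were called (4.02% of all genes were), with 1 at an unadjusted p under 0.05 and 0 by DESeq2 or limma voom. edgeR called 0 of 12 GABARAP and autophagy genes after irradiation, rIL-25 or both treatments against untreated mice, and in the knockout experiment. Over all genes 4.02%, 0%, 8.93% and 1.77% were called there. At an unadjusted p under 0.05 there were 4 of the 12 after irradiation, 3 after both treatments, and 0 in the others. Over all 7482 genes tested the numbers after irradiation and after both treatments were 1415 and 1825. Both treatments against rIL-25 called 1 of the 12, Atg3, which was higher, where 15.3% of all genes were called.

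Markers of cell identity also moved with the treatments that changed Gimap3 and Gimap4. Of 14 tested T cell markers, 3 rose and 2 fell after irradiation (4.02% of all genes were called). The count of 5 was 3 when untreated replicate 1 or irradiated replicate 1 was left out, and 2 when replicate 3 of either group was. The T cell receptor complex gene Cd3d went from 117 ± 10.4 to 676 ± 27.0 CPM, while Dntt, which adds nucleotides during receptor rearrangement, went from 2153 ± 189 to 966 ± 64.2 CPM. Their summed level per library was 4699 to 5556 CPM in untreated, 4878 to 5998 in irradiated and 5016 to 5648 CPM in libraries of both treatments. The summed ILC2 markers were 2197 to 2734, 3727 to 5052 and 3609 to 4482 CPM in those groups. Thy1 was the largest part of that sum, with means of 1483, 3380 and 2423 CPM. Kit went the other way (83.2, 26.6 and 26.8 CPM), and Gata3 stood at 210.5, 249.3 and 222.7 CPM. Of 12 tested ILC2 markers, 3 rose and 1 fell after irradiation (4.02% of all genes were called). After both treatments 7 rose and 1 fell (8.93%). With 1 library left out, the number called ran from 2 to 6 and from 6 to 9. Summed myeloid and dendritic markers were 57.7 to 104 CPM in untreated, 90.8 to 207 in irradiated and 104 to 183 CPM in libraries of both treatments. Summed NK cell and ILC1 markers (3 of 10 in the table) were 544 to 667, 1020 to 1329 and 691 to 1001 CPM in those groups. These markers did not move as a set. Gzma was higher, with means of 367.2, 966.5 and 744.5 CPM, while Nkg7 was lower, with means of 252.6, 172.5 and 134 CPM. Of 2 tested, 1 rose and 0 fell after irradiation (4.02% of all genes were called). After both treatments 1 rose and 1 fell (8.93%). Summed mast cell, basophil and eosinophil markers (2 of 6 in the table) were 252 to 361, 33.4 to 63.3 and 4.30 to 63.7 CPM, and the mast cell protease gene Cpa3 was lower after irradiation (log2 fold change -2.56 ± 0.47, adjusted p = 0.00313). For both lists neither irradiated group overlapped the untreated one. In the knockout experiment the myeloid and dendritic markers were 50.3 to 76.5 CPM in WT and 108 to 126 CPM in KO libraries, and summed ILC3 markers (5 of 6 in the table) were 7.77 to 17.5 and 30.4 to 42.5 CPM. Of 14 tested ILC2 markers 6 were higher in KO libraries (1.77% of all genes were called), with a median log2 fold change of 0.89 over the list. They included the cytokine genes Il13 and Areg and the costimulatory receptor gene Icos (log2 fold changes 1.78 ± 0.16, 1.55 ± 0.16 and 2.64 ± 0.25). Summed T cell markers were at 4806 to 5647 CPM in WT and 4124 to 4608 CPM in KO libraries. Of 14 tested, 0 were called higher and 1 lower (1.77% of all genes were called), with a median log2 fold change of -0.33. The called gene was Dntt, a large part of the sum, with means of 953 CPM in WT and 597 CPM in KO libraries. Cd3g was level, with means of 691.3 and 691.6 CPM. The part of these cell types in the Gimap3 and Gimap4 differences was not tested.

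Genes whose level ran most like that of Gimap1 across the 12 treatment libraries were Trim8, Abhd14a, Kdelr1, Polr3d and Brk1 (Pearson's r of log2 CPM from 0.883 down to 0.860, among 6769 genes). Across the 8 knockout libraries they were Agtrap, Pdlim4, Letmd1, Tpm1 and Carhsp1 (0.930 down to 0.907, among 8482 genes). No other member was among them, and the r of the other members with Gimap1 ran from -0.06 for Gimap7 to 0.34 for Gimap3 in the treatment experiment. Gimap3, added here after its values were seen, ran most like Ltb4r1, Arg1, Il2rb, Asb2 and Serpina3g in the treatment libraries (0.960 down to 0.948), and Gimap3 and Gimap4 had an r of 0.83 there but -0.43 in the knockout libraries. Gimap8, below the count filter, had an r of 0.72 with Gimap3 and 0.74 with Gimap4 in the treatment libraries. In the knockout libraries these were 0.17 and -0.26. These values share libraries, depth and treatment groups and are given as descriptions. Il2rb, which encodes the IL-2 receptor beta chain, was named only for its likeness to Gimap3. Its differences between the same groups therefore restate those of Gimap3 and are no separate support. Il2rb had 0 counts in untreated libraries and 14.5 ± 6.81 CPM after irradiation. In the knockout experiment it was at 11.7 ± 2.80 CPM in WT and 30.5 ± 2.13 CPM in KO libraries.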

How the data were processed

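The members and the gene lists were chosen with earlier results of these data known. For each experiment the authors deposited a table of raw counts by gene and library. Normalized values, also deposited, are a signal equal to the counts over 1 size factor for each library and did not enter any test. Deposited log2 fold changes, first group over second, and the deposited p-values come from DESeq2 per the submitters' processing notes, which also name bcl2fastq, cutadapt, STAR 2.5.2b, HTSeq and mm10. The labels name molecular identifier counts for the knockout table only. Each gene in a table reaches at least 6 counts in some library, and 16 gene names of the treatment table had turned into dates.

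The counts were tested with edgeR 4.0.16 under R 4.3.3: filterByExpr by group (minimum count 10), TMM scaling, and the quasi-likelihood F-test with Benjamini-Hochberg adjustment over all genes tested (7482 and 8812), called under 0.05. One fit held the 12 treatment libraries and another the 8 knockout libraries. The SE was taken as log2 fold change over √F, and intervals are 1.96 SE either way. Count ratios have exact 95% intervals, which cover counting error only. The script was tested on simulated data. Genes were named as all members, up to 3 called genes per list and comparison by p, and the 5 genes most like the most abundant member by r of log2 CPM (prior count 2, mean count at least 10), with Il7r, Bcl2, Klf2, S1pr1, Foxo1, Cd3d, Cd3e, Cd4, Cd8a, Gata3, Il17rb, Il1rl1 and Il25 wherever measured; predicted genes were left out. Genes like Gimap3 and its partner Gimap4 were added after their values were seen. Alternatives were RLE or no scaling, no filter, a minimum count of 30, a block for the replicate number, only the groups compared, DESeq2 1.42.0, limma 3.58.1 voom with quality weights, and each library left out.
Results for some genes are not reported here. Same-numbered libraries of the irradiated and rIL-25 groups deviated together (3 of 3 pairs over 0.1). This was seen in the data and is not stated in the labels, and the main fit did not pair them.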

Additional observations from a re-analysis of the deposited data

Results flagged for a closer look

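In 2 of the 16 sets of 4 knockout-experiment libraries examined, 1 library lay apart from the rest by Dixon's ratio (the gap to the nearest library over the whole range), past its critical value at the 95% level; chance alone does so in about 1 set in 20. For Gimap3 in Il25 WT libraries, replicate 2 was low, at 1.23 CPM against 3.44 to 3.80 CPM (ratio 0.858). For Gimap4 in Il25 WT libraries, replicate 1 was high, at 16.1 CPM against 12.7 to 13.1 CPM (ratio 0.873). Without WT replicate 2 the Gimap3 difference between KO and WT was 1.11 on the log2 scale with an edgeR adjusted p of 0.0894, and without WT replicate 1 the Gimap4 difference remained uncalled.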

How the results depend on the processing

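The number of members called moved in the following settings. With a minimum count of 30 it was 0, from 1, for irradiation, both treatments and both treatments against rIL-25, and in the knockout experiment, since Gimap3 and Gimap4 then leave the treatment tests and Gimap3 leaves the knockout test. DESeq2 called 0 for irradiation and for both treatments against rIL-25, and limma voom called 2 for both treatments against rIL-25 and 1 for irradiation against rIL-25; the cause was not tested. With each library left out, the count ran from 0 to 2 for irradiation, 1 to 2 for both treatments, 1 to 2 for both treatments against rIL-25, 0 to 2 for irradiation against rIL-25 and 0 to 1 in the knockout experiment. The replicate number as a block gave 2 called members for irradiation, where Gimap3 then passed (adjusted p = 0.0465). Correlations of same-numbered libraries' deviations ran from -0.19 to 0.38 over 18 treatment pairs, 4 of them over 0.1, and from -0.20 to 0.25 over 4 knockout pairs, 1 over 0.1. For irradiated and rIL-25 libraries alone all 3 pairs were over 0.1 (0.122, 0.375 and 0.198), but these groups were singled out after the correlations were seen. The main fit had no block and did not treat them as pairs. With the block their comparison also called 0 members, and the block changed no other call of a member. The counts for rIL-25 against untreated, both treatments against irradiation and the interaction were 0 in every setting run, and no called value changed sign. Over all genes, irradiation called 86 to 370 with 1 library left out (301 with all), both treatments 271 to 896 (668), both treatments against irradiation 42 to 358 (188) and against rIL-25 460 to 1318 (1142), irradiation against rIL-25 54 to 206 (155), the interaction 29 to 347 (155) and the knockout 105 to 174 (156). In the other settings irradiation called up to 541, irradiation against rIL-25 up to 311 and the interaction up to 417. Depth limits Gimap3, Gimap4, Gimap7 and Gimap8 most, with 3 to 17 counts over each untreated or irradiated group of the treatment experiment, other than 28 for Gimap3 and 42 for Gimap4 after irradiation.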
